A study of Mus musculus with 9 samples.

Results

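The pyruvate dehydrogenase complex and the enzymes that switch it off and on were followed through the hearts of control, diabetic and spermine-treated diabetic mice. The 10 genes are the kinases Pdk1, Pdk2, Pdk3 and Pdk4, the phosphatases Pdp1 and Pdp2, and the complex genes Pdha1, Pdhb, Dlat and Pdhx, taken by symbol from the 22851 genes of the deposited count matrix. They were chosen by measured values, Pdk4 having been lower in diabetic than in control hearts while other fatty acid genes were higher. The values of that comparison therefore describe the choice and are printed without a p-value. Genes past the threshold in it are marked and counted as a description only. Polyadenylated RNA was measured in 9 libraries of hearts from male mice labelled C57BL/6 and named C57BL/6J in the methods, 3 in each of 3 groups, from mice that were 6 to 8 weeks old at the start. The control check group (CK) received an injection of citrate buffer. The diabetic cardiomyopathy group (DCM) received 1 injection of streptozotocin at 180 mg/kg, a toxin of insulin-producing cells that leaves a model of type 1 diabetes, and was kept for 12 weeks. The spermine group (SPM) received the same streptozotocin, with the polyamine spermine at 1 mg/kg daily over the 2 weeks before it and on alternate days over the 12 weeks that followed. Mice of all groups were fasted overnight before the hearts were taken. The study's text gives both single mice and pools of hearts as the source of a library, so p-values measure the spread between these libraries only, which may be technical.

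Pyruvate dehydrogenase joins glycolysis to the citric acid cycle by turning pyruvate into acetyl-CoA inside mitochondria, and a heart that burns fatty acids keeps it largely phosphorylated and inactive. The pyruvate dehydrogenase kinases add that phosphate to the alpha chain of the first enzyme of the complex, and the phosphatases remove it. Among the kinases, Pdk4 is the one classically induced by fasting, fatty acids, glucocorticoids and lack of insulin, Pdk1 is known as a target of the hypoxia-inducible factor HIF-1, and Pdk2 is the broadly expressed form.

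Total counts lay between 29901300 and 39718680 per library. The extraction protocol in the labels speaks of retinas whereas the tissue label is heart. Summed levels of 5 cardiomyocyte markers were 31198 to 43122 counts scaled to library size (CPM) in the 9 libraries, and 6 retina markers summed to 0.422 to 1.67 CPM. The share of counts from mitochondrially encoded genes ranged from 13.7% to 16.2% among CK libraries, from 15.5% to 18.9% among DCM libraries and from 21.01% to 21.09% among SPM libraries. SPM replicate 2 stood apart. For 66.8% of genes its value fell between the other libraries of its group, against 15.3% to 39.01% for the remaining 8 libraries. Of the 2656 genes without a count in SPM replicates 1 and 3, 30 had a count in SPM replicate 2, against 485 to 1162 such genes for each of the other libraries. Its independence is therefore in doubt, and the called fold changes that rest on the SPM libraries, and the ratios, are given with and without it. In bulk heart RNA, fewer cells of a type and less RNA per cell cannot be told apart.

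All 10 genes passed the filter on low counts in each comparison. Between genes, levels were compared as FPKM, in which fragments are scaled to gene length as well as to library size. By mean FPKM over the 9 libraries Pdk4 was the most abundant of the 10, at rank 78 of all genes in the files, followed by Pdha1 at rank 183, Pdk2 at rank 194 and Pdhb at rank 217. Dlat stood at rank 604, Pdk1 at rank 1002 and Pdhx at rank 1183. The phosphatases Pdp1 and Pdp2 followed at ranks 4196 and 6782, and Pdk3 was the scarcest at rank 9487. The heart libraries thus held far more kinase than phosphatase transcript, with a summed kinase level of 72.9 ± 3.43 times the summed phosphatase level in CK (SD, n = 3, FPKM).

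Sequences before the transcription starts are shown for the genes whose values are set against each other here, Pdk4 and Pdp2, which were both lowest in SPM, and Pdk1 and Pdk2, which were higher in DCM than in CK. They are the 250 bases before the start given by RefSeq on GRCm38.p6, written 5′ to 3′ on the gene's strand. Pdk1 and Pdk2 have 2 starts each there, of which 1 is shown. Capitals mark matches to CCAAT or its reverse complement ATTGG, the box bound by NF-Y. They also mark ACGTG or CACGT, 1 form of the core of the HIF-1 element, which run together as CACGTG where both strands match. The other form, GCGTG, was not searched or marked, and it can be read in the Pdk4 and Pdk1 stretches.
Pdk4, chr6:5496279-5496528, strand -: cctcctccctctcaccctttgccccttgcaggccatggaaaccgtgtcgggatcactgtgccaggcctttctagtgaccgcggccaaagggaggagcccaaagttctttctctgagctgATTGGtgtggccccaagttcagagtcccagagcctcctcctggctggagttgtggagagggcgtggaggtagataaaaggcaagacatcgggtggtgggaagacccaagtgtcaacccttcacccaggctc
Pdp2, chr8:104591222-104591471, strand +: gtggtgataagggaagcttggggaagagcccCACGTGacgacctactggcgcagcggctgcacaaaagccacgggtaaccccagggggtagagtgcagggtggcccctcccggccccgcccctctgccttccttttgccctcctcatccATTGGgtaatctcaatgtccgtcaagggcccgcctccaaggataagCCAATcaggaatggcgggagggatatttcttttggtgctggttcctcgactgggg
Pdk1, chr2:71872974-71873223, strand +: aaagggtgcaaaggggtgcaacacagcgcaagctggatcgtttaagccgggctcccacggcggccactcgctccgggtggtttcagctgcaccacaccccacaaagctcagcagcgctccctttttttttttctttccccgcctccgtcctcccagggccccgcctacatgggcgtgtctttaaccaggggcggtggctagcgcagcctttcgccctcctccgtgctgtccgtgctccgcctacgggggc
Pdk2, chr11:95041372-95041621, strand -: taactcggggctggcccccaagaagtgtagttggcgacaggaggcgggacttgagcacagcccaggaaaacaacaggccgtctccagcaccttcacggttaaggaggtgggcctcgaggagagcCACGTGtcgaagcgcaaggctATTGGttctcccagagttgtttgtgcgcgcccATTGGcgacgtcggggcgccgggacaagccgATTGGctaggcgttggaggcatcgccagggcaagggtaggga
The Pdk4 stretch held a single reverse CCAAT box beginning at position -131, counted from the transcription start. Pdk2 held 3 of them, beginning at -105, -73 and -42, and a CACGTG beginning at -126. Pdp2 held 1 box in each orientation and a CACGTG, and the Pdk1 stretch held no match to the letters searched.

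Promoter windows from 250 bases before to 50 bases after a start were given for 9 of the 10 genes, 11 windows in all, and both strands were searched. ACGTG occurred in 4 of the 11 windows and in 19.6% of 32851 windows of all genes, and CCAAT occurred in 6 of the 11 and in 37.4% of all. None of the 11 held the forkhead letters TGTTTAC (3.65% of all windows), the oestrogen-related receptor letters TCAAGGTCA (0.423%), the PPAR direct repeat DR1 (0.0396%) or the palindromic glucocorticoid receptor element (0.475%), the last pair searched as their consensus. These are matches of letters in short windows and say nothing of whether a factor binds there.

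**Figure D1:**
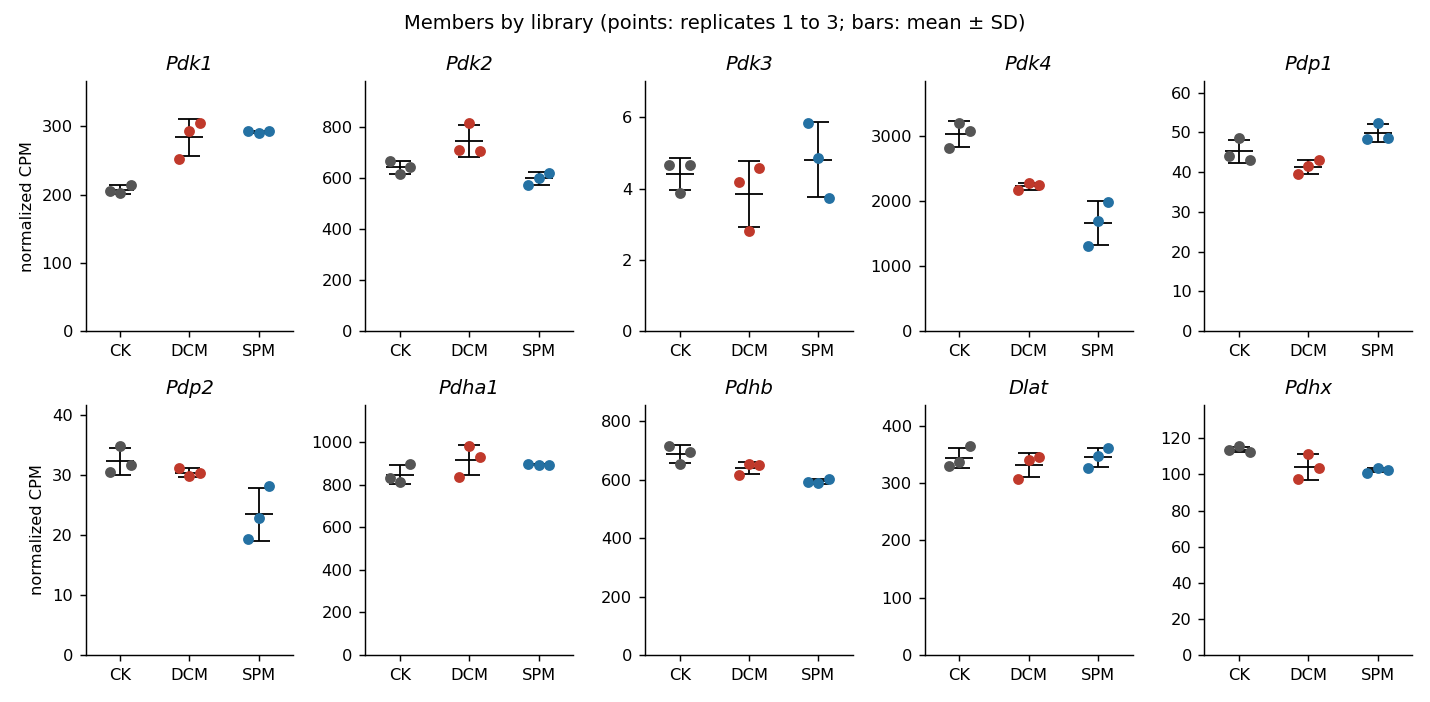
Level of each of the 10 genes in every library, in CPM on TMM-scaled library sizes with a linear axis from 0. Points are the 3 libraries of a group in the order of their replicate numbers, and bars are the mean ± SD (n = 3). The Pdk4 points lie at 2804 to 3198 CPM in CK, below that in DCM (2166 to 2270.5) and lowest in SPM (1306 to 1982), and those of Pdk1 at 202.5 to 214.3 CPM in CK and 252.8 to 305.2 in the diabetic groups.

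Pdk4, the starvation-induced kinase, lies on mouse chromosome 6 (chr6:5483351-5496309, minus strand, GRCm38; the same build holds for all gene positions given here). It had 2804, 3198 and 3073 CPM across the CK libraries, 2166, 2270.5 and 2241 across DCM and 1306, 1684 and 1982 across SPM. The 3 groups did not overlap, every DCM library lay below every CK library, and every SPM library lay below every DCM library. The DCM libraries were close together, with a coefficient of variation of 2.41%, whereas the SPM libraries were spread over 20.4% and SPM replicate 3 came nearest to the DCM values. The log2 fold change was -0.44 (SE 0.08) in DCM compared to CK, the contrast that chose the gene, and -0.87 (SE 0.13) in SPM compared to CK. Without SPM replicate 2 the latter was -0.88 (edgeR, adjusted p = 0.0141). In SPM compared to DCM, which shares the DCM libraries with the choice, Pdk4 was downregulated by a further -0.43 (SE 0.13, adjusted p = 0.0455). That call was narrow. Leaving out any 1 of the 6 libraries except SPM replicate 3 ended it, with log2 fold changes of -0.29 to -0.45 and adjusted p of 0.0833 to 0.139, and without SPM replicate 2 the value was -0.44 with an adjusted p of 0.135.

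Pdk2, the broadly expressed kinase (chr11:95026258-95041354, minus strand), had 669.2, 619.1 and 643.3 CPM across the CK libraries, 711.8, 818.5 and 708.3 across DCM and 574.0, 602.8 and 622.4 across SPM. The DCM libraries lay above all others, and CK and SPM overlapped. Its log2 fold change was 0.21 (SE 0.08) in DCM compared to CK, and in SPM compared to DCM it was downregulated by -0.32 (SE 0.08, adjusted p = 0.0280). SPM compared to CK gave -0.11 (SE 0.06, adjusted p = 0.184). Without SPM replicate 2 the value in SPM compared to DCM was -0.32 with an adjusted p of 0.131, and the call was also lost without SPM replicate 1, DCM replicate 1 or DCM replicate 2 (adjusted p = 0.0529 to 0.0736). An antisense gene, Gm11513, overlaps Pdk2 on the other strand, and the sources used here do not state that reads were counted by strand.

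Pdk1, the HIF-1-responsive kinase (chr2:71873224-71903858, plus strand), was higher in the diabetic hearts. It had 205.0, 202.5 and 214.3 CPM across the CK libraries, 252.8, 293.4 and 305.2 across DCM and 292.6, 290.1 and 293.1 across SPM. Every diabetic library, with or without spermine, lay above every CK library, and DCM and SPM overlapped. The log2 fold change was 0.45 (SE 0.08) in DCM compared to CK and 0.04 (SE 0.08, adjusted p = 0.753) in SPM compared to DCM. In SPM compared to CK, which shares the CK libraries with the choice, Pdk1 was upregulated by 0.49 (SE 0.05, adjusted p = 0.000953), and by 0.47 to 0.51 whichever single library was left out, always past the threshold.

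Pdk3 (chrX:93764607-93832201, minus strand) was barely expressed, with 83 to 190 counts per library. It had 4.65, 3.88 and 4.67 CPM across the CK libraries, 4.20, 2.81 and 4.57 across DCM and 5.85, 4.86 and 3.74 across SPM. All groups overlapped and no comparison passed the test, with log2 fold changes of -0.18 (SE 0.21), 0.31 (SE 0.22, adjusted p = 0.347) and 0.13 (SE 0.19, adjusted p = 0.655) in DCM compared to CK, SPM compared to DCM and SPM compared to CK. With errors of 0.19 to 0.22 on the log2 scale, differences as small as those called for Pdk2 or Pdk1 were not detectable for Pdk3 at this depth.

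The kinase pool differed between the groups in size and in make-up. The summed FPKM of the 4 kinases was 1251 ± 50.6 in CK, 1009 ± 25.96 in DCM and 781.4 ± 106.8 in SPM (SD, n = 3), without overlap between the groups. Pdk4 made up 70.3%, 74.4% and 72.8% of that sum in the CK libraries, 62.8%, 60.7% and 63.1% in DCM, and 54.4%, 59.7% and 62.9% in SPM. All 6 diabetic libraries thus lay below the CK libraries in Pdk4 share, while SPM replicate 3 lay within the DCM range. Pdk2 took up 24.0% ± 1.88 of the CK sum, 32.3% ± 1.52 of the DCM sum and 33.6% ± 3.23 of the SPM sum. Pdk1 took up 3.34% ± 0.157, 5.32% ± 0.426 and 7.11% ± 0.982 in the same order, without overlap between the groups. Pdk3 made up 0.124% to 0.401% of the sum in any library. Shares were described and not tested, since an exact permutation test of 3 against 3 libraries cannot give a p below 0.1. Leaving out SPM replicate 2 moved the SPM mean of the kinase sum to 776.5, that of the Pdk2 share to 33.8%, that of the Pdk4 share to 58.6% and that of the Pdk1 share to 7.22%.

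**Figure D2:**
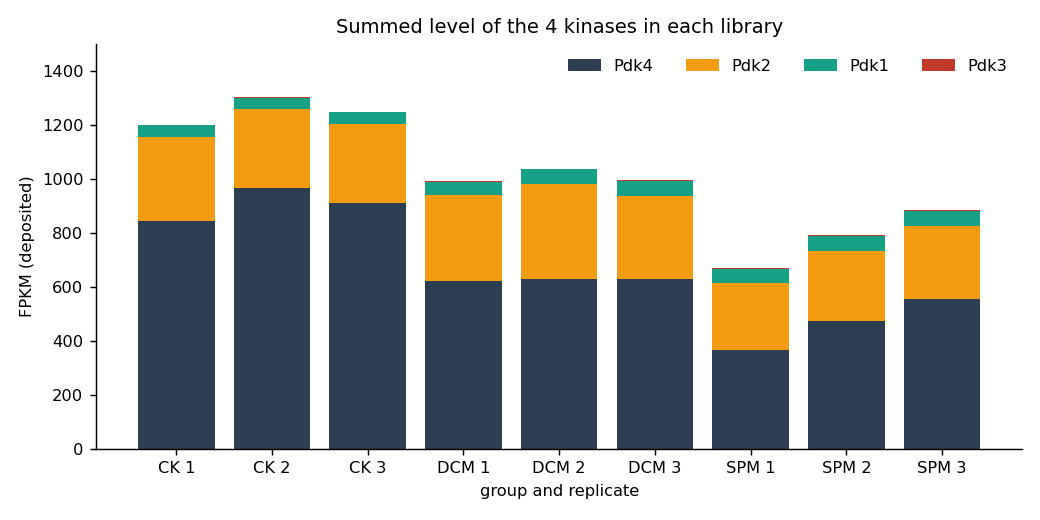
Summed FPKM of Pdk4, Pdk2, Pdk1 and Pdk3 in each of the 9 libraries, as stacked bars on a linear axis from 0. The bars end between 1201 and 1302 in CK, between 991.5 and 1038 in DCM and between 670.0 and 883.1 in SPM, and Pdk4 is the largest segment of every bar.

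Set against each other within a library, there was 21.7 ± 1.61 times as much Pdk4 as Pdk1 transcript in CK, 11.7 ± 0.933 times in DCM and 8.45 ± 1.72 times in SPM (FPKM, SD, n = 3). The corresponding ratios of Pdk4 to Pdk2 were 3.04 ± 0.317, 1.93 ± 0.129 and 1.77 ± 0.294. For both ratios CK stood apart from the diabetic groups, DCM and SPM did not overlap for Pdk4 to Pdk1, and they did overlap for Pdk4 to Pdk2. Without SPM replicate 2 the SPM means were 8.35 and 1.76.

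Of the 2 phosphatases, Pdp1 (chr4:11958184-11966452, minus strand), is the calcium-stimulated form and had 44.2, 48.6 and 43.1 CPM across the CK libraries, 39.6, 41.5 and 43.1 across DCM and 48.3, 52.5 and 48.6 across SPM. CK and SPM overlapped, and the DCM libraries lay below both, with DCM replicate 3 and CK replicate 3 both at 43.1 CPM. Its log2 fold change was -0.13 (SE 0.08) in DCM compared to CK, and in SPM compared to DCM it was upregulated by 0.27 (SE 0.07, adjusted p = 0.0301). SPM compared to CK gave 0.13 (SE 0.07, adjusted p = 0.202). Without SPM replicate 2 the difference from DCM was 0.23 with an adjusted p of 0.185, and it also missed the threshold without DCM replicate 1 or DCM replicate 2 (adjusted p = 0.0874 and 0.0819).

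Pdp2 (chr8:104591451-104599026, plus strand), the form classically tied to insulin, was lower in the SPM hearts. It had 30.4, 34.8 and 31.7 CPM across the CK libraries, 31.2, 29.8 and 30.3 across DCM and 19.4, 22.9 and 28.1 across SPM. CK and DCM overlapped, and every SPM library lay below both groups. The log2 fold change was -0.09 (SE 0.08) in DCM compared to CK and -0.38 (SE 0.12, adjusted p = 0.0515) in SPM compared to DCM, which did not pass the threshold. In SPM compared to CK it was downregulated by -0.47 (SE 0.13, adjusted p = 0.0282), and the call was lost without SPM replicate 2 (-0.45, adjusted p = 0.0993) and without CK replicate 2, CK replicate 3 or SPM replicate 1 (adjusted p = 0.0587 to 0.0884). The ratio of Pdp1 to Pdp2 was 1.90 ± 0.0621 in CK, 1.85 ± 0.111 in DCM and 2.94 ± 0.539 in SPM (FPKM, SD, n = 3), with all SPM libraries above all others and an SPM mean of 2.86 without SPM replicate 2.

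The summed FPKM of both phosphatases was 17.2 ± 1.26 in CK, 14.9 ± 0.298 in DCM and 15.6 ± 0.942 in SPM. On this scale DCM and SPM overlapped and lay below CK. FPKM carry no TMM scaling, and the sum was not taken on CPM. By CPM, Pdp1, the more abundant of the 2, averaged 45.3 ± 2.91 in CK and 49.8 ± 2.30 in SPM. Pdp2 averaged 32.3 ± 2.23 and 23.5 ± 4.41. No lower phosphatase level in SPM than in CK is read from the sum. The ratio of summed kinase to summed phosphatase transcript was 72.1, 69.8 and 76.6 across the CK libraries, 66.4, 71.1 and 65.5 across DCM and 46.2, 49.1 and 54.8 across SPM. CK and DCM overlapped, and all SPM libraries lay below them, with an SPM mean of 50.02 ± 4.34, or 50.5 without SPM replicate 2. This is a ratio of transcripts. Neither enzyme activity nor phosphorylation of the complex was measured here.

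Summed levels of cardiomyocyte and of liver markers differed between the SPM libraries. The 5 of 7 listed cardiomyocyte markers that were analysed here summed to 38428 to 43122 CPM in the CK libraries and 36250 to 42598 in the DCM libraries, and to 31198, 33908 and 36271 in SPM replicates 1, 2 and 3. Of these markers, Myh6 had 13956 to 25836 CPM over all libraries, and the others lay between 980 and 7720 CPM. The sum thus weighs Myh6 most and is no measure of cardiomyocyte number. Pdk4 and Pdp2 stood in the same order in these 3 libraries, from 1306 to 1982 CPM and from 19.4 to 28.1 CPM. So did Pdk2 and Dlat, while Pdk3 and Pdha1 stood in the reverse order and Pdk1, Pdp1, Pdhb and Pdhx in neither. SPM replicate 2 lay between the other libraries of its group for 66.8% of genes, and its independence is in doubt. A shared order in SPM thus compares little more than SPM replicate 1 with SPM replicate 3, and nothing is read from it. In CK the library with the lowest marker sum, CK replicate 2, had the highest Pdk4 and Pdp2. The 5 liver markers summed to 295.6, 134.0 and 1.07 CPM in SPM replicates 1, 2 and 3. They summed to 1.02 to 1.43 CPM in the DCM libraries and 1.65 to 34.8 CPM in the CK libraries. The SPM libraries with more liver transcript had less Pdk4 and Pdp2, which is again the order of these 3 libraries and has the same limit. In CK the library with the most liver transcript, CK replicate 2 at 34.8 CPM, had the highest Pdk4 and Pdp2. The part of cardiomyocyte or liver transcripts in these values was not tested.

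Fold changes of the genes of the complex itself were small. Pdha1 (chrX:160122209-160138413, minus strand) encodes the alpha chain of the first enzyme, which carries the sites that the kinases phosphorylate. It had 832.9, 809.7 and 895.0 CPM across the CK libraries, 836.3, 978.9 and 929.5 across DCM and 898.3, 893.8 and 893.0 across SPM. The groups overlapped pairwise, with CK and SPM doing so through CK replicate 3 alone, and log2 fold changes were 0.11 (SE 0.08) in DCM compared to CK, -0.03 (SE 0.08, adjusted p = 0.797) in SPM compared to DCM and 0.08 (SE 0.05, adjusted p = 0.323) in SPM compared to CK. Map3k15, a gene on the other strand that overlaps Pdha1, had 28 to 57 counts per library, against at least 26132 for Pdha1.

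Pdhb (chr14:8165996-8173025, minus strand) encodes the beta chain of the first enzyme. It had 714.0, 652.5 and 695.1 CPM across the CK libraries, 616.2, 652.2 and 649.6 across DCM and 593.6, 587.2 and 601.9 across SPM. The groups followed each other downwards, CK and DCM being parted by less than 1 CPM at their nearest libraries and SPM lying below both. Log2 fold changes were -0.10 (SE 0.07) in DCM compared to CK and -0.11 (SE 0.07, adjusted p = 0.279) in SPM compared to DCM, and Pdhb was downregulated by -0.21 (SE 0.05, adjusted p = 0.0192) in SPM compared to CK. That call was kept without each other library and lost without SPM replicate 2 (-0.20, adjusted p = 0.121). Since the alpha and beta chains form the first enzyme together, their ratio was followed too: Pdha1 to Pdhb was 1.03 ± 0.0509 in CK, 1.19 ± 0.0600 in DCM and 1.26 ± 0.0168 in SPM (FPKM, SD, n = 3), with CK below all diabetic libraries and DCM and SPM overlapping, and an SPM mean of 1.25 without SPM replicate 2.

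Dlat (chr9:50634633-50659780, minus strand), the lipoyl-bearing second enzyme that forms the core, had 330.5, 337.2 and 364.0 CPM across the CK libraries, 307.2, 340.8 and 345.8 across DCM and 326.9, 347.6 and 360.7 across SPM. All groups overlapped, and log2 fold changes were -0.05 (SE 0.08), 0.06 (SE 0.07, adjusted p = 0.612) and -0.00 (SE 0.06, adjusted p = 0.997) in DCM compared to CK, SPM compared to DCM and SPM compared to CK. Pdhx (chr2:103021075-103073513, minus strand), the core protein that tethers the third enzyme, had 113.6, 115.6 and 112.4 CPM across the CK libraries, 97.5, 111.4 and 103.7 across DCM and 101.0, 103.5 and 102.5 across SPM. All diabetic libraries lay below CK, and DCM and SPM overlapped. Its log2 fold changes were -0.13 (SE 0.07) in DCM compared to CK, -0.03 (SE 0.07, adjusted p = 0.815) in SPM compared to DCM and -0.16 (SE 0.05, adjusted p = 0.0519) in SPM compared to CK, just outside the threshold. In that comparison Pdhx was called by DESeq2 (adjusted p = 0.0475), by limma on FPKM (-0.25, adjusted p = 0.0066) and with the GC correction (-0.22, adjusted p = 0.018).

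**Figure D3:**
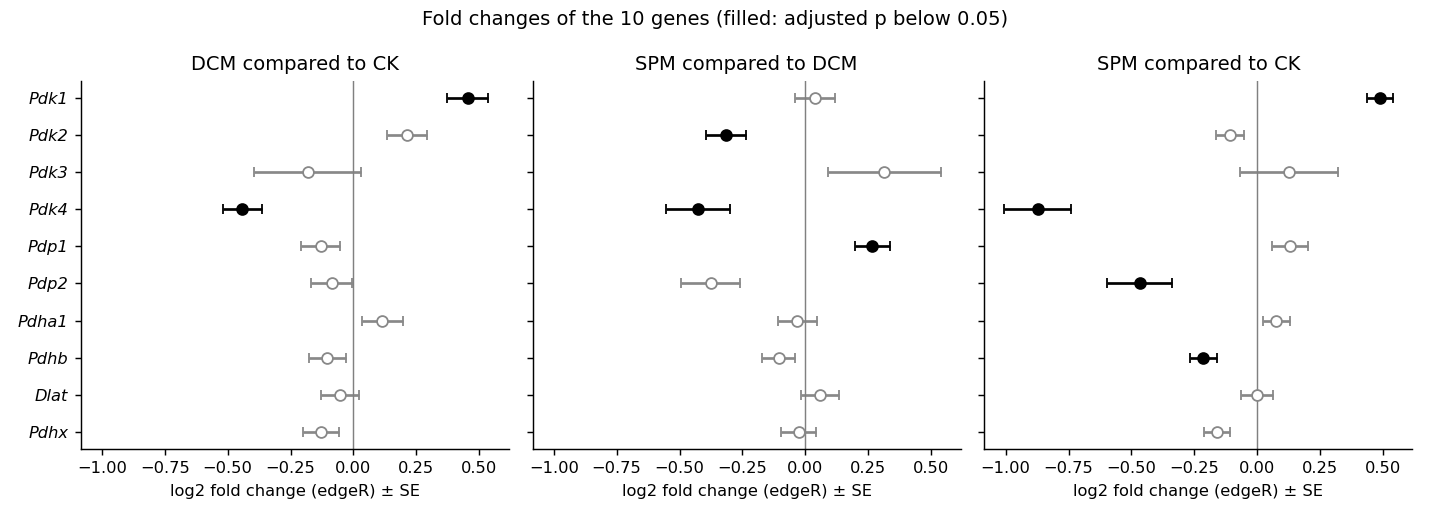
Log2 fold change ± SE (edgeR, 3 libraries against 3) of each gene in the 3 comparisons, on a shared axis. Filled points are those at an adjusted p below 0.05 over all genes tested. In DCM compared to CK, the contrast that chose the genes, these are Pdk1 and Pdk4, in SPM compared to DCM they are Pdk2, Pdk4 and Pdp1, and in SPM compared to CK they are Pdk1, Pdk4, Pdp2 and Pdhb.

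Counted together, 2 of the 10 genes were called in DCM compared to CK, Pdk1 as higher and Pdk4 as lower, beside 10.4% of all genes tested (5.28% higher and 5.11% lower), and nothing is read from this count because the contrast chose the genes. For 6 of the 10 the CK and DCM libraries did not overlap, beside 29.3% of all genes. SPM compared to DCM called 3 of the 10, Pdp1 as higher and Pdk2 and Pdk4 as lower, beside 16.6% of all genes (8.87% higher and 7.76% lower), and 5 of the 10 did not overlap, beside 39.2%. SPM compared to CK called 4 of the 10, Pdk1 as higher and Pdk4, Pdp2 and Pdhb as lower, beside 27.4% of all genes (13.04% higher and 14.3% lower), and 5 did not overlap, beside 46.3%. Whether these shares of 10 genes differ from the background of their comparisons was not tested, and nothing is read from them. Median log2 fold changes of the 10 genes were -0.09, -0.03 and -0.05 in the 3 comparisons, against -0.00, 0.01 and 0.00 over all genes. With the fold limit of 1.5 used in the study's methods, 0, 0 and 1 of the 10 remained, the last being Pdk4 in SPM compared to CK, beside 4.34%, 3.59% and 9.21% of all genes.

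The calls of SPM compared to DCM moved with the base composition of the genes. Across 14484 genes, log2 fold changes in that comparison went down with the GC content of the longest transcript (Spearman rho -0.50), against 0.06 in DCM compared to CK, a description across genes that share their libraries. Pdk2, at 56.9%, had the highest GC content of the 10 genes, Pdp1, at 39.2%, had the lowest, and the other 8 lay between 44.9% and 47.7%. After a correction for this trend in each library, 0 of the 10 genes were called by edgeR, 3 of them at an unadjusted p below 0.05, beside 2.996% of all genes, whereas 3 of the 10 were called without the correction and 4 by DESeq2, beside 19.8% of all genes. The corrected log2 fold change was -0.12 (adjusted p = 0.265) for Pdk2 and -0.05 (adjusted p = 0.764) for Pdp1, the latter reversed in sign. For Pdk4 it was -0.54 (adjusted p = 0.0537) and for Pdp2 it was -0.40 (adjusted p = 0.0913), both no smaller than before. When SPM replicate 2 was left out, 0 of the 10 genes were called by edgeR, 4 at an unadjusted p below 0.05, beside 0.486% of all genes. In SPM compared to CK, leaving it out left Pdk1 and Pdk4 called, beside 10.4% of all genes.

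**Figure D4:**
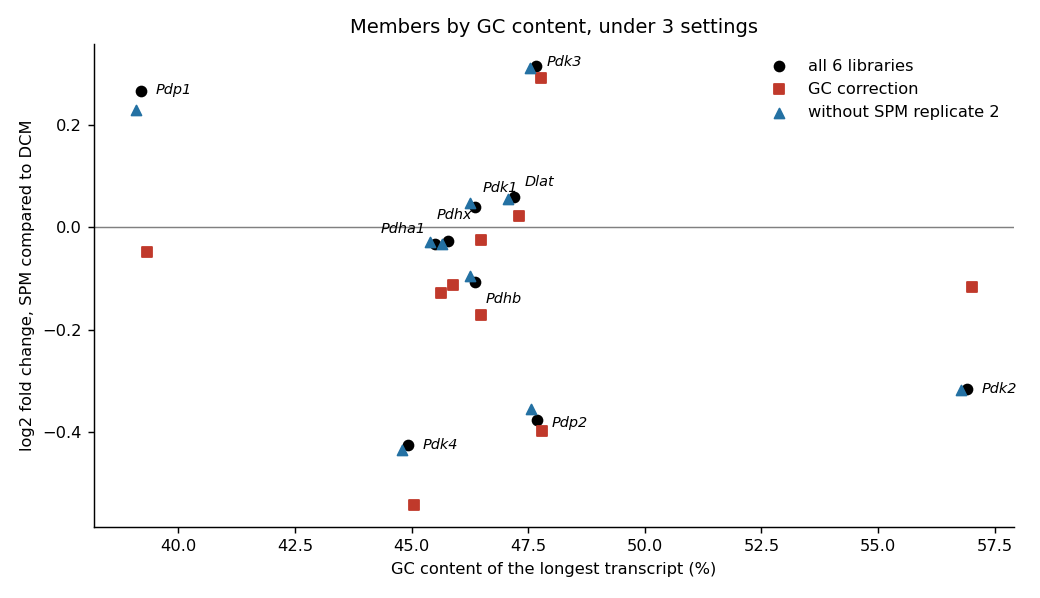
Log2 fold change in SPM compared to DCM against the GC content (%) of each gene's longest transcript, for the 10 genes under 3 settings. Circles are all 6 libraries, squares the values after the GC correction, and triangles the values without SPM replicate 2, shifted slightly sideways. Pdk2 at 56.9% and Pdp1 at 39.2% move towards 0 under the correction, while Pdk4 goes from -0.43 to -0.54 and Pdp2 from -0.38 to -0.40.

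Genes that control transcription of the kinases were followed as a list, of which 12 were analysed here. Of these, 5 were higher and 1 was lower past the threshold in DCM compared to CK, at a median log2 fold change of 0.14, as a description of the contrast that chose the kinase genes. Over all genes tested, 5.28% were higher and 5.11% lower there, and 8.87% and 7.76% in SPM compared to DCM. In SPM compared to DCM, 19.8% were called by DESeq2, 2.996% with the GC correction and 0.486% without SPM replicate 2. These shares are the background of this and the following lists. Ppara, the fatty acid receptor, averaged 25.7 ± 5.15 CPM in CK against 39.1 ± 3.40 in DCM (± SD, n = 3; log2 fold change 0.61, SE 0.13). Foxo3, a forkhead factor held in check by insulin, went from 150.0 ± 17.1 to 225.1 ± 30.1 CPM (0.59, SE 0.11), and Klf15, a glucocorticoid-responsive factor, from 87.3 ± 7.44 to 123.1 ± 11.8 CPM (0.50, SE 0.09). Ppard, the second PPAR of the heart, was the gene that was lower, at 38.2 ± 2.82 and 29.99 ± 1.86 CPM (-0.35, SE 0.09). Ppara and Foxo3, both known to induce Pdk4, were thus higher in the same libraries in which Pdk4 itself was lower. Ppard, of the same list, was lower there, as Pdk4 was. The part of any of these factors in the Pdk4 level was not tested. SPM compared to DCM called 1 as higher, the coactivator Ppargc1a (72.7 ± 4.72 to 96.3 ± 8.51 CPM, 0.41, SE 0.08, adjusted p = 0.0150), and 1 as lower, the orphan receptor Esrra (-0.23, SE 0.06, adjusted p = 0.0377). Ppara, Foxo3 and Klf15 differed from DCM by 0.08, 0.05 and 0.09 there, with adjusted p from 0.582 to 0.763. Both calls were lost without SPM replicate 2, with 3 of the 12 at an unadjusted p below 0.05, and with the GC correction, with 4, while DESeq2 on all libraries called 2.

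Fatty acid genes known to be under PPAR-alpha showed how Pdk4 stood against its class. Of 19 tested, 13 were higher and 2 were lower in DCM compared to CK, beside 5.28% and 5.11% of all genes. The median log2 fold change was 0.41, again as a description, since these values took part in the choice. Acot1, a cytosolic acyl-CoA thioesterase, averaged 89.7 ± 9.70 CPM in CK against 199.5 ± 15.7 in DCM (± SD, n = 3; 1.15, SE 0.09). Decr1, the mitochondrial reductase for unsaturated acyl-CoA, averaged 382.3 ± 13.3 CPM in CK against 583.2 ± 28.1 in DCM (0.61, SE 0.07). Among the most abundant, the fatty acid binding protein Fabp3 and the oxidation enzymes Acaa2 and Acadl were higher by 0.41, 0.53 and 0.55. The 2 genes that were lower together with Pdk4 were Angptl4, an inhibitor of lipoprotein lipase, at 126.2 ± 17.1 and 75.3 ± 8.98 CPM (-0.74, SE 0.11), and Ucp3, a mitochondrial carrier, at 174.3 ± 13.2 and 114.1 ± 13.8 CPM (-0.61, SE 0.09).

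The same list gave 0 higher and 6 lower genes in SPM compared to DCM, beside 8.87% and 7.76% of all genes, with a median of -0.19. Angptl4 was again downregulated, to 39.4 ± 13.6 CPM (-0.94, SE 0.20, adjusted p = 0.0184), as were Ehhadh, the peroxisomal bifunctional enzyme (-0.64, SE 0.10, adjusted p = 0.00968), and Acot1 (-0.47, SE 0.08, adjusted p = 0.0111). Ucp3 had 89.6 ± 21.04 CPM in SPM, and its difference from DCM did not pass the threshold (-0.35, SE 0.15, adjusted p = 0.128). Decr1 and Acadl did not pass it either (0.12 and 0.09, adjusted p = 0.224 and 0.407). Leaving out SPM replicate 2 left 1 of the 19 called, as lower, and the GC correction left 3, Ehhadh and Acot1 among them. Pdk4, Angptl4 and Ucp3 thus had lower means in each step from CK to DCM to SPM, while most listed fatty acid genes were higher in DCM.

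**Figure D5:**
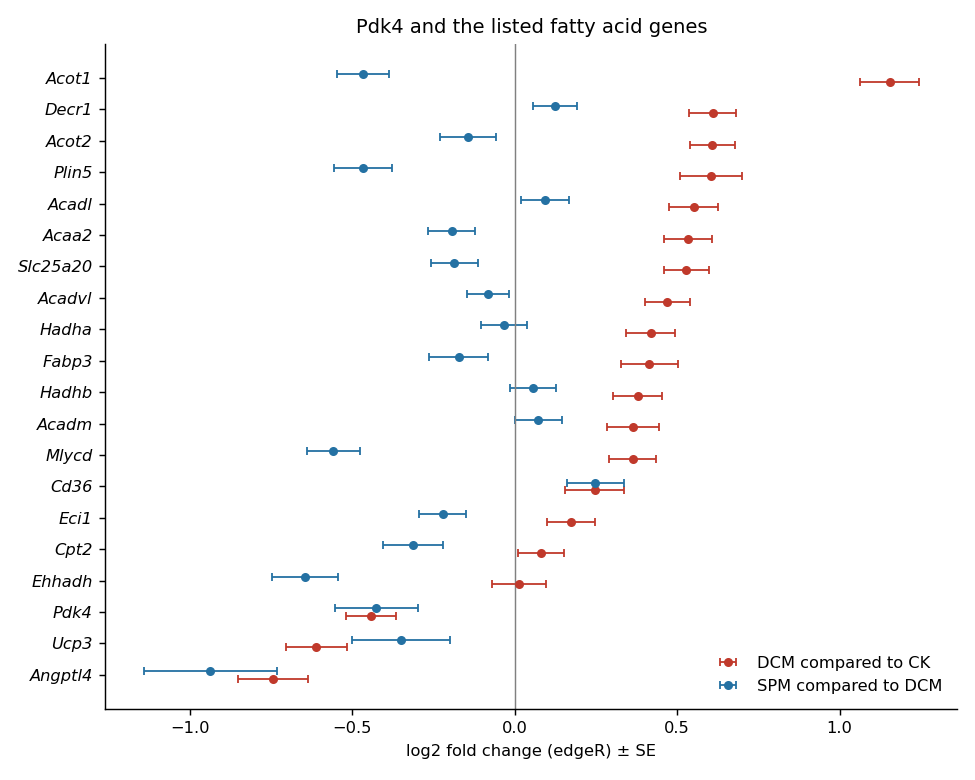
Log2 fold change ± SE (edgeR) of Pdk4 and the 19 fatty acid genes, ordered by DCM compared to CK, with SPM compared to DCM beside it. Pdk4, Ucp3 and Angptl4 lie at the bottom with negative values in both comparisons, and Acot1 at the top with 1.15 in DCM compared to CK.

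Of 10 other targets of the forkhead and glucocorticoid pathways, 6 were higher and 0 lower in DCM compared to CK, beside 5.28% and 5.11% of all genes. Their median log2 fold change was 0.75. Fkbp5, a glucocorticoid-induced co-chaperone, averaged 33.4 ± 7.17, 118.9 ± 22.6 and 118.1 ± 28.0 CPM in CK, DCM and SPM (1.84, SE 0.16, in DCM compared to CK), and Sgk1, a kinase induced by the same hormones, was higher by 0.54 (SE 0.12). Mt2, a metallothionein, was higher by 1.48 (SE 0.33) at a low level, with 0.691 ± 0.0763 CPM in CK and 1.93 ± 0.276 in DCM. The abundant ubiquitin ligase Trim63 and the sestrin Sesn1 had -0.11 and 0.29, neither past the threshold. SPM compared to DCM called 1 of the 10, Irs2, an adaptor of insulin signalling, as lower (-0.39, SE 0.10, adjusted p = 0.0280), and it called 0 without SPM replicate 2, with 1 at an unadjusted p below 0.05, and 0 with the GC correction, with 4, while DESeq2 on all libraries called 1.

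Targets of HIF-1, the group to which Pdk1 belongs, were mixed. Of 12 tested, 3 were higher and 2 were lower in DCM compared to CK, beside 5.28% and 5.11% of all genes, with a median of 0.18. The mitophagy receptor Bnip3 averaged 60.9 ± 2.66 CPM in CK against 111.2 ± 13.4 in DCM (0.87, SE 0.09), and the glucose transporter Slc2a1 was higher by 0.55 (SE 0.12). P4ha1, a collagen prolyl hydroxylase, and the hexokinase Hk2 were lower by -0.59 (SE 0.11) and -0.28 (SE 0.08). The abundant glycolytic genes Aldoa, Ldha and Pgk1 had 0.28, 0.18 and -0.09, none past the threshold. In SPM compared to DCM, Bnip3 was downregulated (-0.42, SE 0.12, adjusted p = 0.0413) and Vegfa, an endothelial growth factor, was upregulated (0.37, SE 0.11, adjusted p = 0.0407). Pdk1 itself differed by 0.04 there, so Bnip3 and Pdk1, both higher in DCM, had different values in the spermine comparison. By edgeR without SPM replicate 2, 0 of the 12 were called, with 5 at an unadjusted p below 0.05, with the GC correction Bnip3 alone was, and DESeq2 on all libraries called 3.

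The genes that bring pyruvate to the complex, equip it with lipoate or send pyruvate elsewhere were a list of 18, all tested. None was called in DCM compared to CK by edgeR or by DESeq2, with 6 and 7 at an unadjusted p below 0.05, and the median was 0.02. Limma on FPKM called 1 of the 18, beside 1635 of all genes. By edgeR without DCM replicate 2, 2 of the 18 were called, beside 866 of all genes. SPM compared to DCM called 3 as higher and 3 as lower, beside 8.87% and 7.76% of all genes. Mpc1, a subunit of the mitochondrial pyruvate carrier, had 10.6 ± 1.31 CPM in DCM and 14.6 ± 2.36 CPM in SPM (0.46, SE 0.13, adjusted p = 0.0434), and Dld, the third enzyme of the complex, had 249.5 ± 22.6 and 314.7 ± 12.8 CPM (0.33, SE 0.08, adjusted p = 0.0224). Lower were Pcx, pyruvate carboxylase, from 47.4 ± 9.43 to 27.9 ± 2.18 CPM (-0.76, SE 0.13, adjusted p = 0.0107), Gpt, an alanine transaminase (-0.62, SE 0.10, adjusted p = 0.0107), and Ldhb, the heart lactate dehydrogenase (-0.32, SE 0.08, adjusted p = 0.0280). Citrate synthase, Cs, did not pass the threshold (-0.10, SE 0.07, adjusted p = 0.360). Of the 18, Pcx alone was called without SPM replicate 2 (-0.77, adjusted p = 0.0492), and Pcx and Gpt were with the GC correction.

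The sister complexes of pyruvate dehydrogenase, which split 2-oxoglutarate and branched-chain 2-oxoacids with the same chemistry, were tested for comparison with its subunits. None of 8 genes was called in DCM compared to CK by edgeR or by DESeq2, with 1 at an unadjusted p below 0.05 in each, and the median log2 fold change was 0.05. Limma on FPKM called 1 of the 8, beside 1635 of all genes. SPM compared to DCM gave 0 higher and 4 lower, beside 8.87% and 7.76% of all genes, with a median of -0.32. There, 0 of the 4 pyruvate dehydrogenase subunit genes Pdha1, Pdhb, Dlat and Pdhx were called, all 4 at an unadjusted p above 0.05. Dld, the third enzyme of the complex, is in neither of these counts. It was called as higher there (0.33, adjusted p = 0.0224), a call lost without SPM replicate 2 and with the GC correction. The difference between these lists was not tested. The lower genes included Bckdha, the alpha chain of the branched-chain enzyme, from 140.4 ± 14.3 to 99.8 ± 8.85 CPM (-0.49, SE 0.09, adjusted p = 0.0130), and Ogdhl, a form of the 2-oxoglutarate enzyme (-0.43, SE 0.10, adjusted p = 0.0201). The more abundant Ogdh and Dlst had -0.29 and -0.16 (adjusted p = 0.0659 and 0.149). Leaving out SPM replicate 2 left 0 of the 8 called, with 5 at an unadjusted p below 0.05, the GC correction left 1, and DESeq2 on all libraries called 5.

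Over the 9 libraries, the 5 genes whose log2 CPM profile was most like that of Pdk4, by the root mean square difference after centring each gene on its mean, were Col5a3 (0.0621), Fam131a (0.0744), Klhl33 (0.0853), Lzic (0.0863) and Inpp5j (0.0964), among 8400 genes with a mean of at least 10 CPM. Col5a3 averaged 57.3 ± 2.17, 41.1 ± 1.12 and 33.1 ± 7.32 CPM in CK, DCM and SPM, a course of the same shape at a far lower level. Of the other kinase, phosphatase and complex genes, Pdp2 came closest to Pdk4 at rank 114 (0.189), Pdhb followed at rank 1522 and Pdhx at rank 1933. Pdk2 stood at rank 3072 and Pdk1 at rank 7742, so these kinases were less like Pdk4 in profile than Pdp2 was, while Pdk3 lay under the limit of 10 CPM and was not ranked. The 9 libraries share 3 groups, so these values describe a likeness of profile and no more.

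Markers of other cells of the heart also differed between the groups. The 6 fibroblast markers summed to 1968 to 2062 CPM in the CK libraries, 1333 to 1423 in the DCM libraries and 1588 to 1649 in the SPM libraries. In the same order, the 5 endothelial markers summed to 1636 to 1893, 1543 to 1701 and 1429 to 1558 CPM, the 5 macrophage markers to 570.4 to 765.5, 448.8 to 544.7 and 541.7 to 940.0 CPM, and the 4 atrial markers to 985.5 to 1396, 568.1 to 1062 and 1027 to 1700 CPM. The 5 adipocyte markers summed to 37.0 to 147.6, 47.2 to 78.5 and 64.6 to 88.9 CPM. The part of any of these cells in the values of the kinase, phosphatase and complex genes was not tested.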

How the data were processed

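RNA sequencing libraries of 9 mouse hearts or heart pools were grouped by their labels as CK, DCM and SPM, 3 each. The authors deposited raw counts per gene, made from reads filtered with fastp and named by Ensembl identifiers, and FPKM per library, which a single length for each gene and the total of each library turn back into those counts (largest relative deviation 8.6e-13). The submitters' processing notes name Bowtie 0.12.2 and the builds mm8 and mm9, with no role stated, and no source used here gives the counting tool or the use of strand. Symbols and positions came from GENCODE M21 on GRCm38, and 22820 of 22851 identifiers were named.

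Pairs of groups were compared on the counts in R 4.3.3 by quasi-likelihood F-tests (edgeR 4.0.16, filterByExpr, TMM, 6 libraries per fit). A gene was called at a Benjamini-Hochberg adjusted p below 0.05 over all genes tested, with no fold limit. Standard errors were taken as the fold change on the log2 scale over the square root of F. CPM were computed on TMM-scaled library sizes. The steps were tested on simulated data. Alternatives were DESeq2 1.42.0, limma 3.58.1 on log2(FPKM + 0.1), other normalization, filters and sample sets, and a lowess GC correction (span 0.3). List counts and kinase shares without SPM replicate 2, and list counts with the GC correction, were added after the data had been seen. Replicate numbers did not pair the libraries: residuals of same-numbered libraries correlated at -0.0746 to 0.205 over 9 pairs and those of other numbers at -0.284 to 0.217 over 18, so no block was used.

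The 10 genes and the lists were chosen with earlier results of these data known. Besides the 10 genes, the text names, from each list, the called genes with the 2 largest rises and the 2 largest falls in DCM compared to CK and in SPM compared to DCM and the 3 highest by mean FPKM, and the 5 genes most like Pdk4. One gene of the fatty acid list is not reported here and was left out of the list. Protein sequences were not used here. Total counts of 29901300 to 39718680 put at least 83 counts behind each value of the 10 genes.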

Additional observations from a re-analysis of the deposited data

How the results depend on the processing

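Fold changes of the 10 genes in DCM compared to CK kept their sign under all 8 alternatives that kept every library, and Pdk1 and Pdk4 kept their calls there. That comparison chose the genes and the alternatives use the same libraries, so this describes the processing and gives no further evidence of a difference. With the fold limit of 1.5 the numbers called were 0, 0 and 1 of the 10 genes and 625, 521 and 1342 of all genes in DCM compared to CK, SPM compared to DCM and SPM compared to CK. The GC correction gave 0 of the 10 and 434 of all genes in SPM compared to DCM, and reversed Pdk1 (-0.024) and Pdp1 (-0.048) there and Pdk2 (0.079) and Pdp1 (-0.17) in SPM compared to CK. Pdha1 was -0.017 by limma on FPKM in SPM compared to CK, and Dlat was 0.0018 there with RLE normalization and 0.0048 with all 9 libraries in 1 fit. On CPM in place of FPKM the Pdk4 share was 77.9%, 68.3% and 64.5% in CK, DCM and SPM. Leaving out 1 library at a time gave 2 of the 10 genes and 817 to 1326 of all genes in DCM compared to CK, 0 to 4 and 72 to 2433 in SPM compared to DCM, and 2 to 4 and 1544 to 3768 in SPM compared to CK. The numbers of all genes were lowest without CK replicate 2, SPM replicate 2 and SPM replicate 2. They were also 866 and 966 without DCM replicates 2 and 3 in DCM compared to CK, and 194 and 751 without DCM replicates 2 and 1 in SPM compared to DCM. In SPM compared to DCM, 0 of the 10 were called without DCM replicate 1, DCM replicate 2 or SPM replicate 2, with 4 at an unadjusted p below 0.05 each time, and 1 was without SPM replicate 1. Single libraries also turned the sign of small values: Dlat in DCM compared to CK (-0.081 to 0.0040), Pdk1 (-0.044 to 0.085), Dlat (-0.00099 to 0.090), Pdha1 (-0.10 to 0.019) and Pdhx (-0.080 to 0.025) in SPM compared to DCM, and Pdk3 (-0.035 to 0.28) and Dlat (-0.035 to 0.039) in SPM compared to CK. Under the replicate block 2, 4 and 4 of the 10 genes and 1302, 2810 and 3826 of all genes were called, Pdp2 being added in SPM compared to DCM (-0.39, adjusted p = 0.0248), and no other call of the 10 changed. Pdp2 was also called there by DESeq2 (adjusted p = 0.0241), with RLE normalization (0.0492), without the low-count filter (0.0287) and with all 9 libraries in 1 fit (0.0438), and without SPM replicate 3 (0.00501), while the Pdk4 call there was lost by limma on FPKM (0.0679). Of the 5 genes most like Pdk4, 4 remained with a limit of 1 CPM. Beyond the settings named, the cause of these shifts was not tested. Depth limits Pdk3 above all, with 83 to 190 counts per library.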
